A study of Saccharomyces cerevisiae with 6 samples.

Results

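The stretch described here is the distal part of ETS1, the external transcribed spacer that opens the yeast 35S ribosomal RNA precursor. It comprises positions 351 to 700 counted from the transcription start site, directly before the 18S gene, and will be called distal ETS1. These are 350 of the 6858 positions tabulated for the 35S gene, and they were chosen by position alone. In the R64 assembly they lie on chromosome XII from 466870 to 467219, minus strand, within ETS1-2 (YNCL0026C) of the rDNA copy RDN37-2 (YNCL0020C). Native elongating transcript sequencing (NET-Seq) was carried out for RNA polymerase I (Pol I) in 3 libraries of WT *Saccharomyces cerevisiae* and 3 of *rpa190-F1205H*. The mutant carries a phenylalanine to histidine change in the trigger loop of the largest Pol I subunit and was compared to ask where on the rDNA the altered enzyme resides. In the mutant strain *RPA190* is deleted from the chromosome (*rpa190Δ::HIS3*) and the altered gene is supplied by the plasmid pRS315, with 3×-hemagglutinin on the C terminus of Rpa135, the second largest subunit. The control is described as the appropriate parent strain, labelled wild-type, and no drug or other treatment was given to either strain. Each strain was grown as 3 separate cultures at 30 °C to an optical density of 0.3. That the mutant polymerase comes from a plasmid, and the WT genotype beyond its label, are the limits of the strains as a pair, and neither can be told apart from the amino acid change.

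Pol I transcribes the 35S precursor, from which the 18S, 5.8S, and 25S rRNAs are cut. Its spacers do not become part of the ribosome. ETS1 is bound while still nascent by the U3 small nucleolar ribonucleoprotein and the small subunit processome, is cleaved at a site called A0 and again at A1, which forms the 5′ end of 18S, and the released spacer is then degraded. The trigger loop is the mobile element of the active site that closes over the incoming nucleotide during each addition. In NET-Seq the polymerase is immunoprecipitated with its RNA, and the 3′ end of each RNA is sequenced. A read from nascent RNA therefore gives the last nucleotide that 1 polymerase had added, while a read from a cleaved precursor bound to the complex gives the end left by the cleavage.

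The sequences around the positions to which the results return are given as RNA, read from the base column of the deposited table, with 19 nucleotides before the mapped 3′ end, the 3′ end in capitals, and 10 nucleotides after it. The first set holds the positions that were highest in WT, and the changes at neighboring positions below turn on them.
Position 405: accuccucucaaaucagcgAuaucaaacgu
Position 437: cauuccgugaaacaccgggGuaucuguuug
Position 496: gugcuaugguauggugacgGagugcgcugg
Position 497: ugcuaugguauggugacggAgugcgcuggu
Position 622: auaaguaucuucuagcaagAgggaauaggu
The second set holds positions outside the 50 highest of WT that were among the highest, or the most increased, in *rpa190-F1205H*.
Position 367: ugaauagccggucgcaagaCugugauucuu
Position 389: ugauucuucaaguguaaccUccucucaaau
Position 492: aagagugcuaugguaugguGacggagugcg
Position 540: gcuuuuugaacagagagcaUuuccggcagc
Position 558: auuuccggcagcagagagaCcugaaaaagc
The stretch between A0, taken as 90 nucleotides before 18S, and the 18S gene (positions 611 to 700, chromosome XII from 466870 to 466959, minus strand) is shown in full because its composition changes along it. Capitals mark its run of 11 adenines at positions 636 to 646.
A0 to 18S: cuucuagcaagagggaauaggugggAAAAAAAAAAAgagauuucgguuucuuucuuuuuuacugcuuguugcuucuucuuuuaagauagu
Of its last 50 nucleotides, 30 are U. Distal ETS1 as a whole holds 103 A, 62 C, 82 G, and 103 U.

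Values are the authors' normalized reads, that is reads scaled so that positions 1 to 6739 of a library sum to 1000000. In the 3 WT libraries 29362, 24689, and 33437 reads ended in distal ETS1. In the 3 *rpa190-F1205H* libraries the numbers were 125188, 123136, and 149821, and the whole gene had 2028349 to 3687549 reads per library. The median position had 26 to 37 reads in a WT library and 192 to 226.5 in a mutant library, so that single positions are less precise in WT. Because the sum of each library is fixed and reads at the mature rRNA positions are counted in it, a higher value means a larger share of the library and not more polymerase. The share of distal ETS1 was 1.04%, 1.22%, and 1.08% of the 35S reads in WT and 3.93%, 3.90%, and 4.06% in the mutant. Differences between strains are therefore given on the deposited scale and, where the choice of scale changes them, also on scales that equalize, between libraries, the sum over all spacers (the same spacer total) or the sum over distal ETS1. Ratios and shares within a library do not depend on the scale.

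On the deposited scale, occupancy of distal ETS1 was 3.56 times as high in *rpa190-F1205H* as in WT. The mean was 29.8, 34.8, and 30.9 normalized reads per position in the WT libraries (31.8 ± 2.62, SD, n = 3) and 112, 112, and 116 in the mutant libraries (113 ± 2.43, n = 3). The strains did not overlap, and the difference of 1.83 on the log2 scale gave p = 0.1 in a two-sided exact permutation test, the smallest p that 3 libraries against 3 allow. The median over positions differed more than the mean, at 11.9 ± 0.91 in WT and 61.8 ± 1.21 in the mutant (n = 3). With every library set to the same spacer total, the mean was 62.9 ± 1.83 in WT and 75.9 ± 0.91 in the mutant, again without overlap, and the difference shrank to 0.27 on the log2 scale. Expressed as a share of all spacer reads, distal ETS1 held 27.3%, 27.4%, and 26.0% in WT and 32.3%, 32.2%, and 32.9% in the mutant. Proximal ETS1, positions 1 to 350, held 31.8% ± 1.31 in WT and 33.5% ± 0.51 in the mutant (n = 3).

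**Figure D1:**
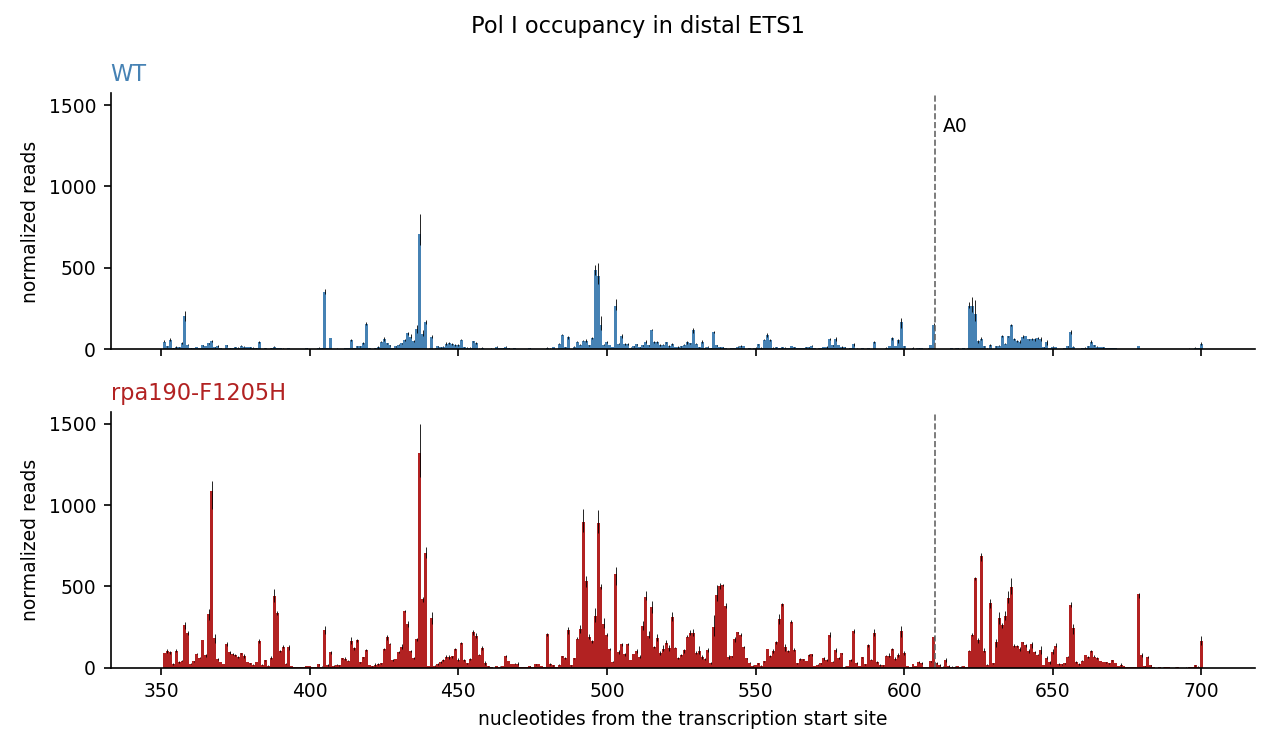
Normalized reads at each of the 350 positions of distal ETS1 in WT (upper panel) and *rpa190-F1205H* (lower panel), against nucleotides from the transcription start site. Bars are the mean of 3 libraries, thin lines run from the lowest to the highest library, and the dashed line marks A0; WT reads stand in a few tall positions led by 437 and 496, whereas in the mutant 367 and 492 are among the tallest.

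Most positions were higher in *rpa190-F1205H* and a few were lower. By limma on log2(value + 1), with Benjamini-Hochberg adjustment over all 6843 positions tested, 316 of the 350 positions were higher and 11 were lower, and 23 did not pass. Over the whole 35S gene, 40.6% of positions were called higher and 33.9% lower. The median log2 fold change of distal ETS1 was 1.91, with quartiles of 1.06 and 2.66 and a range from -1.35 to 5.71, against a median of 0.049 over all positions. The 3 libraries of a strain did not overlap those of the other at 321 of the 350 positions (91.7%), against 78.1% of all positions. An unbroken run of 54 positions, 497 to 550, was called higher throughout.

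The direction of many of these changes depends on the scale. With the same spacer total in every library, 189 positions were higher and 86 lower, where 11.6% and 78.6% of all positions were called. On that scale the median log2 fold change was -1.48 over all positions and 0.49 in distal ETS1. With the same total over distal ETS1, which compares only the shape of the profile, 154 positions were higher and 104 lower, where 9.00% and 82.1% of all positions were called. The 189 and the 154 positions were all among the 316, and the 11 lower positions were lower on each scale.

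**Figure D2:**
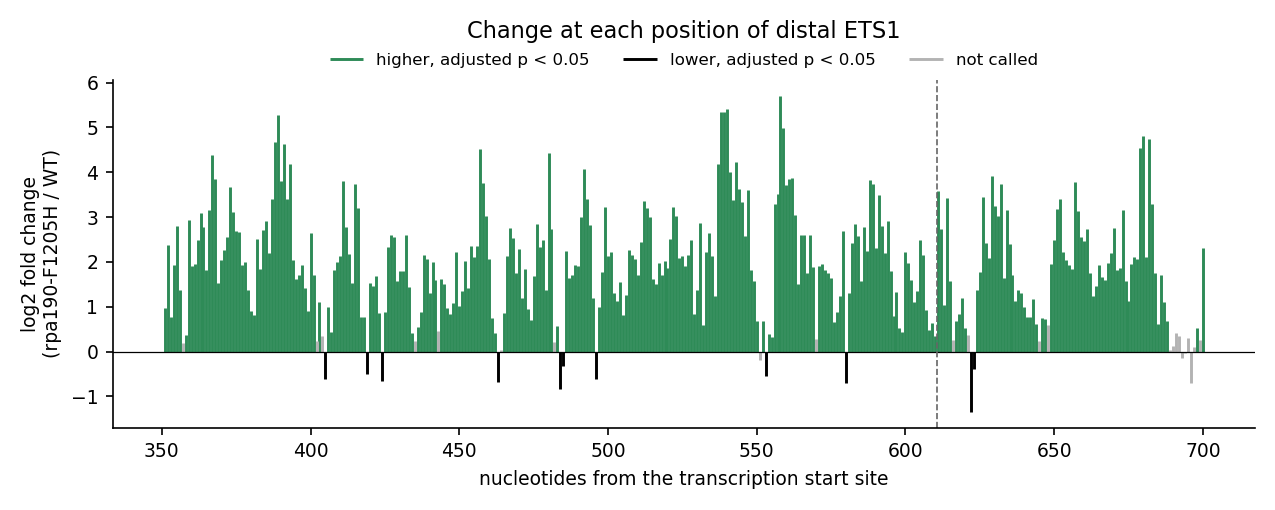
Log2 fold change (*rpa190-F1205H* over WT, limma on log2(value + 1), 3 libraries each) at each position of distal ETS1 on the deposited scale, against nucleotides from the transcription start site. Green lines are the 316 positions called higher, black lines the 11 called lower, and gray lines the 23 not called; the dashed line marks A0, and positions 538 to 540 and 558 carry the tallest lines.

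WT occupancy stood in fewer positions than mutant occupancy. The 10 highest positions of each library held 30.1%, 32.1%, and 29.3% of the distal ETS1 reads in WT and 18.5%, 19.9%, and 20.3% in *rpa190-F1205H*. No library of one strain reached the range of the other, and the difference in means was -10.9 percentage points (two-sided exact permutation test, p = 0.1, n = 3). The single highest position held 6.36% ± 0.46 in WT and 3.32% ± 0.35 in the mutant (n = 3). The share of the 10 highest positions in proximal ETS1 was 33.2% ± 1.20 in WT and 18.7% ± 0.63 in the mutant, so a less concentrated profile in the mutant was not limited to distal ETS1. The lists themselves were stable within a strain. Any 2 libraries of the same strain shared 9 of their 10 highest positions, and a WT and a mutant library shared 4 or 5. Between whole profiles, 4.56% to 7.98% of the reads would have to move to turn one library of a strain into another, and 35.5% to 37.3% to turn a WT library into a mutant one.

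Position 437, the last G of a run of 4, was the highest of distal ETS1 in both strains. It held 663, 830, and 640 normalized reads in WT and 1170, 1290, and 1496 in *rpa190-F1205H*. The mutant libraries were all above the WT libraries, with a log2 fold change of 0.89 ± 0.14 (SE) and a limma adjusted p of 0.00036. The direction was the opposite on the other scales, -0.67 with the same spacer total and -0.94 with the same distal ETS1 total, the change being smaller than that of the region. Position 439, only 2 nucleotides further, went from 168 ± 12.1 to 708 ± 34.1 normalized reads (log2 fold change 2.07), and rose from rank 11 in WT to rank 5 in the mutant.

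At the neighboring positions 496 and 497 the strains differed in opposite directions. Position 496 held 484, 517, and 454 normalized reads in WT and 281, 310, and 369 in *rpa190-F1205H*, a log2 fold change of -0.61 ± 0.12 (limma adjusted p = 0.0017). Position 497, the next nucleotide, held 420, 532, and 403 in WT and 831, 876, and 971 in the mutant, a log2 fold change of 0.99 ± 0.13 (limma adjusted p = 0.00013). In WT the pair was close to even, and in each mutant library 497 was more than 496. Position 492, only 4 nucleotides before 496, had 49.0, 55.2, and 53.1 normalized reads in WT, far fewer than 496 or 497, and 835, 876, and 976 in the mutant. This is a difference of 17.1-fold (log2 fold change 4.07 ± 0.10, limma adjusted p = 3.8e-08), and it moved the position from rank 53 to rank 3. Positions 367, 439, and 492 were named because they were among the 5 highest of the mutant. Their higher rank in the mutant therefore follows in part from the choice. The difference at 497, but not that at 492 or 496, changed sign with the same spacer total (-0.57) and the same distal ETS1 total (-0.84).

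Neighbors also differed in direction downstream of A0. Position 622 held 261, 290, and 252 normalized reads in WT and 101, 104, and 109 in *rpa190-F1205H*, the largest fall in distal ETS1 at -1.35 ± 0.09 on the log2 scale (limma adjusted p = 3.3e-06). At 623 the values were 228, 319, and 258 in WT and 203, 214, and 194 in the mutant (log2 fold change -0.38, limma adjusted p = 0.025), a call that was lost without WT replicate 2 (adjusted p = 0.071), mutant replicate 1 (0.062), or mutant replicate 3 (0.078). Position 626, which was taken up after its values were seen, held 54.7, 73.5, and 58.0 in WT and 658, 704, and 697 in the mutant. Between them, position 624 was among the 10 highest in both strains, with 172, 305, and 180 in WT and 556, 555, and 542 in the mutant.

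The other lower positions were spread over distal ETS1. Position 405, the isolated peak that ranked the fourth highest in WT, held 340, 370, and 351 normalized reads in WT and 237, 254, and 209 in *rpa190-F1205H* (log2 fold change -0.60, limma adjusted p = 0.00070), and its rank went from 4 to 42. Position 419 had 155 ± 9.88 in WT and 109 ± 5.73 in the mutant (log2 fold change -0.50). Positions 405, 419, 496, 622, and 623 were named as the 5 largest falls among those with no overlap between strains. Their separation was therefore required by the choice. Of these, 405, 496, and 622 were also among the 5 highest of WT, so that a fall in rank follows in part from the choice. The remaining 6 positions, 424, 463, 484, 485, 553, and 580, had WT means of 13.6 to 89.5 and log2 fold changes between -0.84 and -0.33. On the deposited scale, all 11 lower positions ended in a purine, 6 in A and 5 in G, and none of the 62 positions ending in C and the 103 ending in U was called lower. Few positions could enter this count, as 3.14% of distal ETS1 was called lower on that scale, against 33.9% of all positions tested. With the same spacer total, 86 positions of distal ETS1 were called lower, and the restriction to purines did not hold. Positions ending in C or U were then called lower as well, among them 417 (C, log2 fold change -0.74) and 425 (U, -0.67).

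The largest rises were at positions whose WT means were near or below 11.9, the WT median over positions of distal ETS1. Position 558 held 3.55, 5.92, and 5.18 normalized reads in WT, which were 10 to 16 reads, and 272, 302, and 333 in *rpa190-F1205H* (log2 fold change 5.71 ± 0.16, limma adjusted p = 4.0e-08). Positions 538, 539, and 540 had WT means of 11.9, 11.6, and 8.10 and mutant means of 502, 507, and 379. Their log2 fold changes were 5.34, 5.35, and 5.41. Position 389 had 6.39, 10.4, and 6.80 in WT and 352, 323, and 333 in the mutant, a log2 fold change of 5.28. These 5 positions were chosen among those with an adjusted p below 0.05, no overlap between strains, and a mean of at least 50. That mean was reached only through the mutant libraries, and the separation of the strains was required by the choice. WT counts of this size also carry a large counting error. Position 367 was the second highest of the mutant, at 975, 1135, and 1147 normalized reads, against 42.2, 58.7, and 54.1 in WT (log2 fold change 4.38, limma adjusted p = 5.8e-08).

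Many of the steep rises came in short runs of neighboring positions. Of the 350 positions, 67 had a log2 fold change above 3, and 40 of them lay in 8 runs of at least 3 neighbors, a description chosen after the values were seen. The runs make up 11.4% of the positions, and they held 5.83% ± 0.13 of the WT reads and 26.8% ± 0.20 of the mutant reads of distal ETS1 (n = 3). Because the runs were picked by their fold change in these same libraries, a larger share in the mutant follows from the choice and is no separate result. The longest was positions 537 to 545, whose summed occupancy was 103, 122, and 104 normalized reads in WT and 2591, 2518, and 2619 in the mutant. The next in length, 556 to 563, summed to 78.8, 98.1, and 80.3 in WT and 1545, 1592, and 1600 in the mutant. The run at 387 to 393 summed to 47.9 ± 6.90 in WT and 1224 ± 28.1 in the mutant. The sequences of these 3 runs are shown with the run in capitals and 10 nucleotides on each side.
Positions 387 to 393: ucaaguguaaCCUCCUCucaaaucagc
Positions 537 to 545: ugaacagagaGCAUUUCCGgcagcagaga
Positions 556 to 563: gcagcagagaGACCUGAAaaagcaauuu
At least 4 purines stood in the 5 nucleotides before 4 of the 8 runs, and before 30.6% of all 350 positions.

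**Figure D3:**
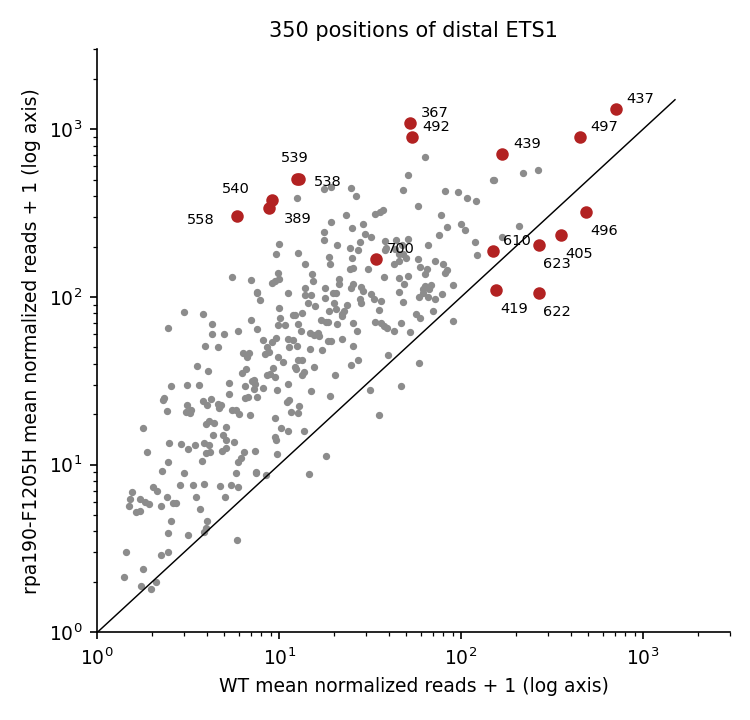
Mean normalized reads (+ 1, log axes) of each position of distal ETS1 in *rpa190-F1205H* against WT, n = 3 libraries per strain. Gray points are the 350 positions, red points are those named by the rule with their position number, and the line marks equal values; positions 389, 538 to 540, and 558 stand far above it and 405, 419, 496, 622, and 623 below it.

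Along distal ETS1, the increase was uneven. In windows of 50 nucleotides the largest ratio, 6.03-fold, was at positions 351 to 400, where normalized reads per position averaged 17.95 ± 1.75 for WT and 108 ± 2.43 for *rpa190-F1205H*. The window 401 to 450 had the highest WT mean, 54.5 ± 5.04, and with 127 ± 2.78 in the mutant the smallest ratio, 2.33-fold. As a result the share of this window in the reads of distal ETS1 was 24.4% ± 0.39 in WT and 16.0% ± 0.41 in the mutant. The highest mutant mean was in the window 501 to 550, at 168 ± 10.2 against 33.4 ± 2.83 in WT, and its share was 15.0% ± 1.08 in WT and 21.1% ± 0.82 in the mutant. The last window before 18S was the lowest in both strains, at 9.07 ± 0.82 and 50.3 ± 2.12. No WT library overlapped a mutant library in any of the 7 windows.

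**Figure D4:**
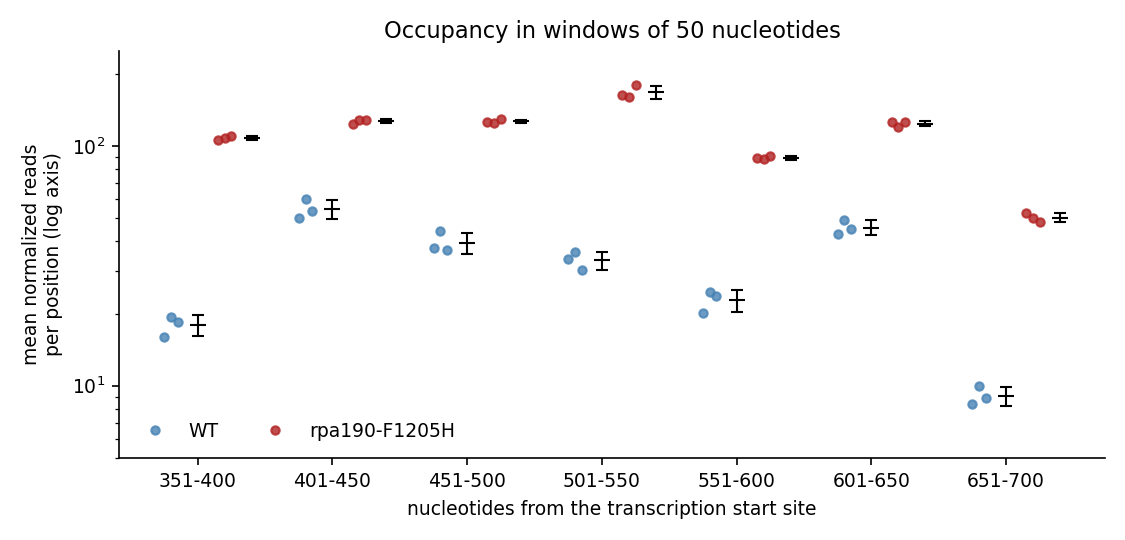
Mean normalized reads per position (log axis) in 7 windows of 50 nucleotides of distal ETS1, against nucleotides from the transcription start site. Points are single libraries (blue WT, red *rpa190-F1205H*) and black marks the mean ± SD, n = 3; the gap between strains is widest at 351-400 and narrowest at 401-450.

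The site A0 divides distal ETS1 into RNA that precedes the cleavage and the 90 nucleotides between A0 and 18S. Within 10 nucleotides of A0 the highest position in both strains was 610, the last nucleotide before the site as placed here. It held 125, 160, and 163 normalized reads in WT and 195, 197, and 170 in *rpa190-F1205H*, while the other positions of this window averaged 6.19 ± 0.65 in WT and 21.5 ± 1.13 in the mutant. The values of 610 therefore differed little on the deposited scale (log2 fold change 0.34 ± 0.13, limma adjusted p = 0.037), and this call was lost without WT replicate 1 (adjusted p = 0.11), mutant replicate 1 (0.10), or mutant replicate 2 (0.11). It was lower in the mutant on the other scales, at -1.22 with the same spacer total and -1.49 with the same distal ETS1 total. The last nucleotide of ETS1, position 700, where cleavage at A1 would leave a 3′ end, also stood above its neighbors. It held 30.2, 42.9, and 26.6 in WT and 194, 163, and 142 in the mutant (log2 fold change 2.31 ± 0.18, limma adjusted p = 7.6e-06), whereas the 9 positions before it averaged 3.49 ± 0.62 in WT and 4.14 ± 0.83 in the mutant and overlapped between strains. Whether reads at 610 and 700 come from nascent or from cleaved RNA was not tested.

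The mean between A0 and 18S was below the mean before A0 in both strains, and by slightly more in *rpa190-F1205H*. The log2 ratio of the mean after A0 to the mean before it was -0.23, -0.26, and -0.23 in WT and -0.32, -0.39, and -0.42 in the mutant. The difference of -0.14 gave p = 0.1 (two-sided exact permutation test, n = 3), and it was -0.10 with overlap between strains (p = 0.3) when medians over positions replaced means. Without the highest 1% of positions the WT ratio changed direction, to 0.12 ± 0.02 against -0.19 ± 0.03 in the mutant, and the difference between strains was -0.31. Within the 90 nucleotides, the 11 adenines averaged 72.3 ± 1.70 (WT) and 156 ± 13.2 (mutant), and 10 of the 11 were called higher, a share like that of distal ETS1 as a whole (316 of 350). The U-rich last 30 nucleotides held 4.54% ± 0.27 of the reads between A0 and 18S in WT and 11.2% ± 0.65 in the mutant (n = 3). Of the 23 positions of distal ETS1 that did not pass the limma test, 10 lay in the last 20 nucleotides before 18S. Over the whole gene 40.6% of positions were called higher and 33.9% lower, and the rest did not pass. Few reads ended close to 18S, where positions 11 to 2 before it averaged 3.22 ± 0.55 in WT and 3.82 ± 0.73 in the mutant. A lack of calls there therefore does not show a lack of change.

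The nucleotide added last also separated the strains. In WT, positions ending in G and A averaged 51.7 ± 5.43 and 39.5 ± 1.83 normalized reads, and those ending in C and U 21.7 ± 2.27 and 14.5 ± 1.57. In *rpa190-F1205H* the means were 140 ± 7.19 for G, 115 ± 4.21 for A, 131 ± 3.06 for C, and 80.3 ± 4.72 for U. The ratio of mutant to WT was 6.03-fold at C and 5.53-fold at U against 2.91-fold at A and 2.71-fold at G. Independently of scale, the log2 ratio of purine to pyrimidine ends was 1.47, 1.36, and 1.33 in the WT libraries and 0.27, 0.33, and 0.43 in the mutant libraries. The difference of -1.04 (two-sided exact permutation test, p = 0.1, n = 3) was -0.77 when the highest 1% of positions were left out. On the deposited scale, all 62 positions ending in C and 98 of the 103 ending in U were called higher by limma. So were 88 of the 103 ending in A and 68 of the 82 ending in G. These counts stand against 316 of 350 (90.3%) for distal ETS1 and 40.6% for all positions tested over the gene. With the same spacer total 189 of the 350 were called higher, and with the same distal ETS1 total 154. Counts by last nucleotide are given for the deposited scale only. As shares of the reads, C went from 12.0% ± 0.44 in WT to 20.4% ± 0.22 in the mutant, and G from 38.0% ± 0.95 to 28.9% ± 0.93.

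**Figure D5:**
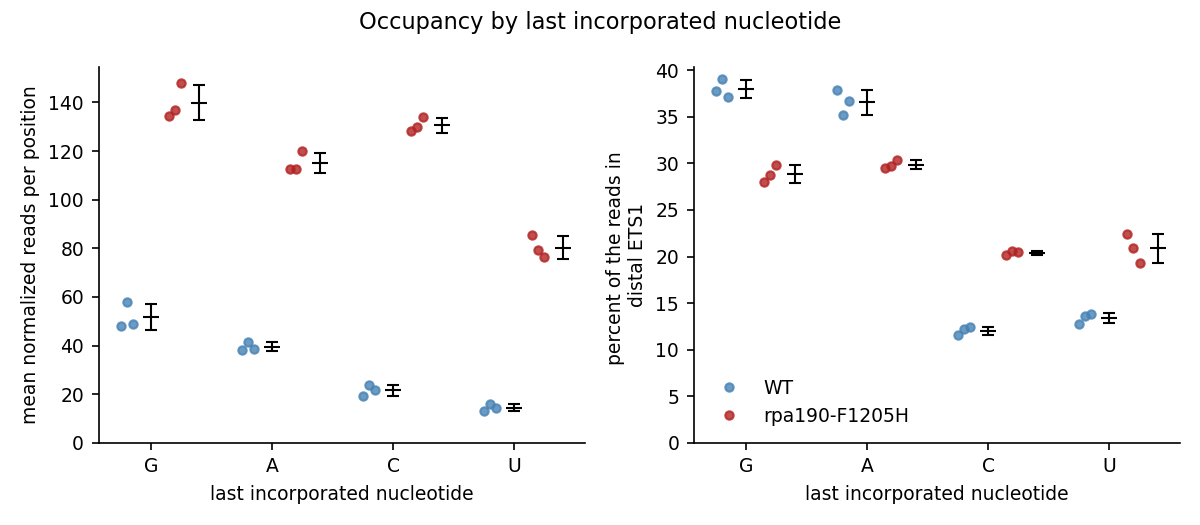
Occupancy of distal ETS1 by the nucleotide at the RNA 3′ end, as mean normalized reads per position (left) and as percent of the distal ETS1 reads (right). Points are single libraries (blue WT, red *rpa190-F1205H*) and black marks the mean ± SD, n = 3; in WT the G and A positions are the highest, and in the left panel the mutant C mean lies between those of G and A.

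The nucleotide before the last was related to occupancy in both strains. With G before the 3′ end the average was 64.4 ± 6.07 for WT and 195 ± 5.82 for *rpa190-F1205H*, and positions with another nucleotide there averaged 19.4 to 24.5 in WT and 85.7 to 93.5 in the mutant. Not every pair was examined, and among those that were the highest was GG, at 126 ± 14.7 in WT and 260 ± 13.7 in the mutant. Its 19 positions include 437 and 496, ranked 1 and 2 in WT. CC, by contrast, had 28.1 ± 2.21 in WT and 187 ± 2.46 in the mutant, 6.63-fold, and GU had 23.2 ± 2.24 and 153 ± 8.98, 6.61-fold. Positions whose last 10 nucleotides held at least 7 purines averaged 56.1 ± 5.20 in WT and 182 ± 7.34 in the mutant, and those with 3 or fewer averaged 11.1 ± 1.16 and 44.9 ± 1.34, so that in both strains purine-rich RNA ends were the more occupied. Positions that share a sequence stretch are neighbors and are not independent of each other.

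Compared with proximal ETS1, distal ETS1 held relatively more of the mutant reads. The log2 ratio of the mean of distal to that of proximal ETS1 was -0.27, -0.23, and -0.23 in WT and -0.03, -0.08, and -0.02 in *rpa190-F1205H*, a difference of 0.20 without overlap (two-sided exact permutation test, p = 0.1, n = 3). With medians over positions the difference was 0.08 and the strains overlapped (exact permutation test, p = 0.5). The excess of purine ends over pyrimidine ends was larger in distal than in proximal ETS1 by 0.63 ± 0.06 on the log2 scale in WT and by 0.30 ± 0.01 in the mutant, without overlap. By medians these values were 0.23 ± 0.18 and 0.08 ± 0.13 and overlapped. Against ITS1, the spacer between 18S and 5.8S, the log2 ratio of means was 1.00, 0.98, and 0.83 in WT and 1.01, 1.07, and 1.10 in the mutant, a difference of 0.13 (two-sided exact permutation test, p = 0.1, n = 3) that was 0.07 without WT replicate 3. With medians over positions it was larger, at 0.79 (0.41 ± 0.05 in WT and 1.20 ± 0.03 in the mutant). The lower purine excess of the mutant was not particular to distal ETS1. In WT and the mutant, the log2 purine to pyrimidine ratio was 0.76 ± 0.02 and 0.05 ± 0.09 in proximal ETS1. In ITS1 it was 1.21 ± 0.06 and 0.38 ± 0.09. It was higher in the mutant in the later spacers ITS2 (-0.48 ± 0.07 and -0.07 ± 0.06) and ETS2 (-1.81 ± 0.07 and 0.35 ± 0.09). By medians ITS2 overlapped, and ETS2 was lower in the mutant (1.46 ± 0.21 and 0.65 ± 0.16).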

How the data were processed

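Pol I NET-Seq was analysed for 3 WT and 3 *rpa190-F1205H* cultures. As the methods and processing notes describe, reads were deduplicated by molecular identifier with fqtrim, trimmed with cutadapt, aligned to R64 with STAR 2.7.1a, and reduced to 3′-end coverage with bedtools. The notes and the methods name different cutadapt and bedtools versions. The assignment of reads to rDNA copies is not given in the sources used here. The deposited values are RPM, for which the authors took positions 1 to 6739 as the total of 1000000. Deposited strain means, ratios, and p-values were not used.

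Division of a library by its lowest nonzero value gave back the reads, and 99.98% of 41148 quotients lay within 0.02 of a whole number. Replicates of a strain differed by more than sampling noise (chi-square per degree of freedom 1.64 to 5.34). The strains were compared at each position by limma 3.58.1 (R 4.3.3) on log2(value + 1), fold changes being understated at low values, with Benjamini-Hochberg adjustment over 6843 positions at 0.05. On simulated reads limma recovered 186 of 200 changed positions among 6841 with 12 other calls. In the simulation few positions changed, each with a mean of at least 10 reads, and 1 dispersion was used for all. In the data most positions were called, so these rates need not hold there. Region measures were compared over libraries with two-sided exact permutation tests. Other settings were a pseudocount of 0.1 or 10, a filter at a mean of 10, 2 other scales, edgeR 4.0.16 and DESeq2 1.42.0 on recovered reads, the methods' t-test, medians, trimmed positions, a replicate block, and omission of each library.

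Named positions are the 5 highest by each strain's median, the 5 largest rises and falls (adjusted p below 0.05, mean of at least 50, no overlap), and the highest within 10 nucleotides of A0 and in the last 10 nucleotides before 18S. A0 was placed 90 nucleotides before 18S. The stretch that pairs with U3 was not analysed here. The region, lists, and tests were chosen with earlier results of these data known.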

Additional observations from a re-analysis of the deposited data

How the results depend on the processing

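The counts of 316 higher and 11 lower positions of distal ETS1 depended mainly on the scale. With the same spacer total they were 189 and 86, and with the same total over distal ETS1 154 and 104. In the other fits to all 350 positions the counts were 268 to 323 higher and 9 to 12 lower. They were 311 and 11 by edgeR, 302 and 11 by DESeq2, and 268 and 9 by the methods' t-test after adjustment. The filter at a mean of 10 left 281 positions, of which 264 were higher and 11 lower. Without adjustment limma gave 318 and 11. Leaving out 1 library gave 303 to 317 higher and 10 to 12 lower, and 297 of the 316 and 10 of the 11 were called in each of these fits. Same-numbered libraries deviated together only weakly (r = 0.13, 0.03, and 0.20), so the numbers were not taken as pairs. With the replicate number as a block, the counts were 323 and 11. Of the 17 named positions, 437, 497, and 610 reversed with the same spacer total, to -0.67, -0.57, and -1.22 on the log2 scale, and with the same total over distal ETS1, to -0.94, -0.84, and -1.49. There, the call at 439 was lost (0.24, limma adjusted p = 0.064). The calls at 610 and 623 were lost by the methods' t-test after adjustment (adjusted p = 0.095 and 0.17). The 6 region measures kept their direction under each alternative run. No p below 0.1 is possible for them, and counting error limits positions with few reads, 66 to 92 of which had under 10 reads in a WT library.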

Other observations

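The 2 longest runs of steep rises, at positions 537 and 556, each begin right after the letters AGAGA, which was noticed after the values were seen. These letters precede 4 positions of distal ETS1, 537, 556, 558, and 651, and their log2 fold changes (limma) were 4.18, 3.28, 5.71, and 3.18, where 19.1% of all positions of distal ETS1 were above 3. Position 651 went from 14.2 ± 1.57 normalized reads in WT to 137 ± 11.4 in *rpa190-F1205H* (n = 3). In the other spacers, where the letters had not been looked at, 4 of the 8 positions that follow them were above 3, where the share of all positions above 3 was 17.0% (proximal ETS1), 7.22% (ITS1), 9.52% (ITS2), and 5.31% (ETS2). In proximal ETS1 both were, at 3.41 and 3.83, and in ETS2 neither was, at 0.91 and 1.05. The 5-letter windows at 556 and 558 overlap, and the match is a description of the sequence.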
